A study of Mus musculus with 17 samples.

Results

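The libraries described here are the 11 Control libraries of an RNA-seq series on cultured mouse ovarian follicles, of 17 libraries in all. They were chosen by their treatment label, and the comparison is between the batches that the labels name: 6 Control libraries of batch 1 (Control 1 to 6) against 5 of batch 2 (Control 7 to 11). Per the labels and the design text, antral follicles of CD1 mice aged 16 days were grown for 8 days by eIVFG, in which single follicles are held in a gel and grow outside the ovary, and 3 follicles went into each sample. The other 6 libraries, 3 in each batch, came from follicles given 10 µM Tyrphostin-AG1478, which blocks the kinase of the epidermal growth factor receptor, together with hCG for 4 h. The treatment text is the same for all 17 samples, so whether Control follicles received hCG or the DMSO vehicle is not stated. The first number in the library names divides the Control libraries into 5 sets: sets 1 and 2, with 3 libraries each, make up batch 1, and set 4 (Control 7 and 8), set 5 (Control 9) and set 6 (Control 10 and 11) make up batch 2. What a set or a batch stands for (animals, culture, day or sequencing run) is not stated, so p-values over libraries measure only the spread between these libraries.

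An antral follicle holds an oocyte with its cumulus cells, a wall of mural granulosa cells and, outside the basement membrane, theca cells with vessels and stroma. Granulosa cells convert androgen to oestrogen through aromatase. After the surge of luteinizing hormone, which hCG replaces in culture, they release EGF-like ligands, switch on immediate early genes and then Pgr, Ptgs2 and the matrix genes of ovulation, and turn to progesterone synthesis from cholesterol.

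Total counts in the Control libraries ran from 1820545 (Control 6) to 8291024 (Control 8), and 12538 to 16383 genes had at least 1 count. A floor of 3 counts corresponded to 0.327 to 1.58 CPM (the usual per-library scaling of read counts, here on TMM-scaled library sizes, and the unit of all levels below). This floor reflects counting error alone, because reads were not collapsed to molecules. Libraries of the same batch, compared in pairs, differed by far more than read sampling gives: the chi-square divided by its degrees of freedom was at least 11.8 and at most 84.1, and no library repeated another. Control 7 stood apart: its summed level of mitochondrially encoded mRNAs was 1346 CPM, against 14355 to 18185 in the other libraries of batch 2 and 15463 to 28902 in batch 1, and its summed level of ribosomal protein mRNAs was 34887 CPM, against 12631 to 17434 in the rest of batch 2. Inha, an inhibin subunit that marks granulosa cells, stood at 43929 ± 3799 CPM in batch 1 (SD, n = 6) and 41739 ± 4963 in batch 2 (SD, n = 5). Foxl2, another granulosa gene, was near the floor throughout (at most 1.16 CPM) and was not tested.

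The libraries separated by batch on the first principal component, while sets of the same batch overlapped in part. A principal component analysis of the 500 genes with the highest variance put 39.7% of that variance on the first component. Batch explained 66.4% of the scores on it, and the 5 sets 91.3%. All batch 1 libraries scored below all batch 2 libraries, Control 7 was the farthest out, and the scores of sets 1 and 2 overlapped. Over the 9128 genes tested, the median share of a gene's variance was 13.7% between batches, 31.8% between sets of the same batch and 43.5% between libraries of the same set. These sources hold 1, 3 and 6 degrees of freedom, or 10%, 30% and 60% of the total. The medians for batches and for sets were thus above these shares, and that for libraries of the same set was below. The correlation between libraries of the same set, estimated over all genes by limma with batch in the model, was 0.162. Libraries of batch 2 were also more variable than those of batch 1 (common biological coefficient of variation of 0.366 and 0.284).

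**Figure D1:**
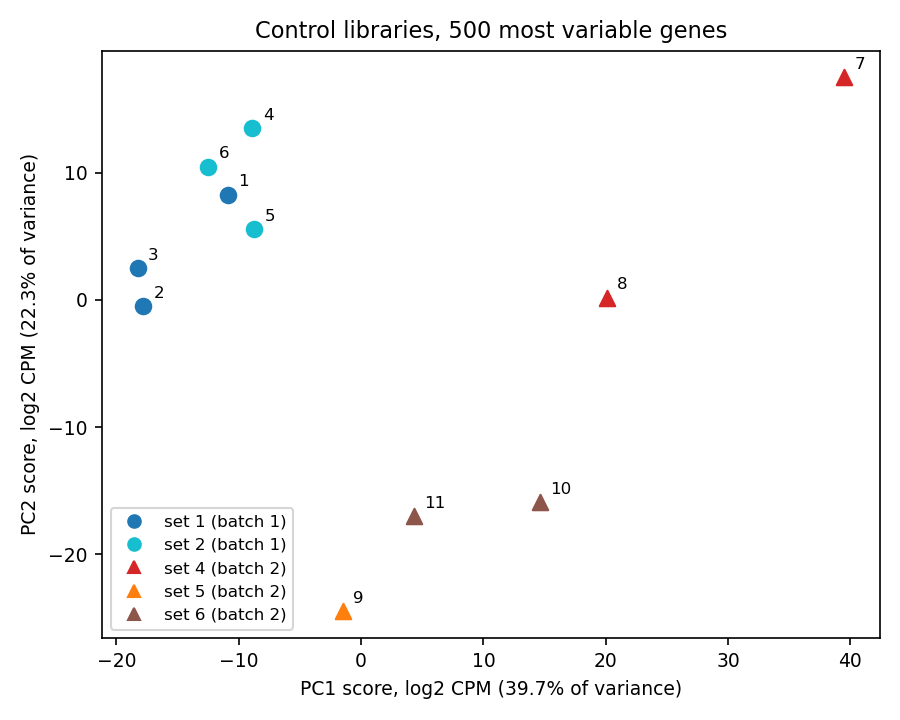
Scores of the 11 Control libraries on the first (39.7% of variance) and second (22.3%) principal components of log2 CPM over the 500 most variable genes, with the library number beside each point, circles for batch 1 and triangles for batch 2. The 6 libraries of batch 1 lie together on the left, and the 5 of batch 2 are spread over both axes, with Control 7 at the far right.

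Of the 9128 genes, 1004 (11.0%) differed between batches at an adjusted p under 0.05: 502 (5.50%) were higher in batch 2 and 502 (5.50%) lower. With total-count scaling the split was 907 higher to 281 lower, because the median of all genes then lay at 0.23 on the log2 scale instead of 0.04, so every direction below is relative to the TMM scale. In 336 genes (3.68%) all batch 2 libraries lay above all batch 1 libraries, and in 351 (3.85%) they lay below. The differences called were mostly large: 330 of the genes that were higher and 280 of those that were lower differed by at least 1 on the log2 scale. The count was 660 without Control 3. The count of higher genes was 331 without Control 2 and 330 without Control 3, and that of lower genes 330 without Control 3 and 326 without Control 10. When counts were first summed by set, so that 2 sets stood against 3, 67 genes passed (0.734%), 37 of them higher (0.405%) and 30 lower (0.329%). All 67 were among the 1004, and all 1004 kept their direction in that fit. It sums the counts of the same libraries, so the kept direction is not separate evidence. For the gene groups below, the counts over libraries come first, and the count over sets follows. They stand against the 11.0% called over all genes. At an unadjusted p under 0.05 (edgeR) there were 2349 of the 9128 genes over libraries and 1482 with counts summed by set.

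Several genes of the ovulatory response were lower in batch 2. Of 21 tested, 8 were lower, 0 were higher and 13 did not pass, 4 of the 21 had a positive difference, and the list had a median log2 difference of -0.66 against 0.04 over all genes. Ptgs2, which encodes the prostaglandin synthase needed for ovulation, stood at 11351, 10144, 13999, 11188, 7841 and 6981 CPM in Control 1 to 6, and at 2953, 3431, 4569, 2868 and 2586 CPM in Control 7 to 11. Every batch 2 library was below every batch 1 library. The log2 difference was -1.64 ± 0.25 (SE), with an adjusted p of 0.000623. Pgr, the progesterone receptor that granulosa cells make after the surge, stood at 1949 to 3436 CPM in batch 1 and at 361, 928, 1812, 552 and 1307 CPM in batch 2, again without overlap (log2 difference -1.44 ± 0.34, adjusted p = 0.0135). Control 7 was the lowest and Control 9 the highest of batch 2 for this gene.

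Of the EGF-like ligands that carry the signal of the surge within the follicle, Areg showed the larger difference. Its values were 1246, 671, 1386, 580, 272 and 348 CPM in batch 1 and 179, 196, 136, 69.5 and 106 CPM in batch 2 (log2 difference -2.45 ± 0.43, adjusted p = 0.00252). The lowest batch 1 library was still above the highest of batch 2, and set 1 was above set 2 in each of its libraries. Btc was lower as well, at 6844 ± 2221 CPM against 3372 ± 955 (log2 difference -1.02, adjusted p = 0.0278). Ereg did not pass: it averaged 14127 ± 5523 and 7755 ± 2639 CPM, with an adjusted p of 0.0919. The Areg promoter is shown because cAMP, the second messenger of the hormone receptor, acts through the sequence TGACGTCA and its shorter form TGACG. In the 250 bases before the RefSeq start (chr5:91139349-91139598, plus strand, GRCm38.p6), capitals mark matches to TGACG on either strand, and 2 of the 3 matches overlap in the full 8-base form.
Areg: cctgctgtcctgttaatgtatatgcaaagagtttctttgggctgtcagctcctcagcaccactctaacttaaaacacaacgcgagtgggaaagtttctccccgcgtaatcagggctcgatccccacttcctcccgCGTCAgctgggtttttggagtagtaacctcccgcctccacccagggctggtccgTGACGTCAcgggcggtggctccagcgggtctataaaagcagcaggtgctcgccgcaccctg
Among 32851 promoter windows of this length, 17.8% held TGACG and 1.55% held TGACGTCA. The windows of Ptgs2, Pgr, Tnfaip6, Sult1e1 and Ctsl held no match to TGACG. A match is a description of the letters and not a site.

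Other ovulatory genes followed with smaller differences. Tnfaip6, whose product cross-links the cumulus matrix, ran from 6084 to 12539 CPM in batch 1 and from 3337 to 5206 in batch 2 (log2 difference -0.94, adjusted p = 0.0181). Adamts1, a protease that cuts that matrix, ran from 766 to 1574 CPM and from 345 to 664 CPM (log2 difference -0.85, adjusted p = 0.0296). Neither gene overlapped between batches. Sult1e1, an oestrogen sulfotransferase, differed by -1.96 and Ctsl, a lysosomal protease, by -1.07 on the log2 scale, and both overlapped: Sult1e1 was 3235 CPM in Control 6 and 6327 in Control 9. Has2, the hyaluronan synthase of the cumulus, averaged 164 ± 73.3 CPM and 154 ± 32.9 and did not pass (adjusted p = 0.889). Ptx3, which also binds the cumulus matrix, did not pass either (adjusted p = 0.164), although it was as low as 7.36 and 12.4 CPM in set 4. The count of ovulatory response genes lower in batch 2 was 5, with 1 higher, without Control 3, 4 without Control 8 and 3 without Control 10. With counts summed by set, 0 of the 21 passed (edgeR), with 8 lower and 1 higher at an unadjusted p under 0.05. DESeq2 over libraries called 9 lower and 1 higher.

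Immediate early genes and feedback genes of the ERK pathway were measured as the layer that responds before these targets. Of 27 tested, 5 were lower and 0 higher in batch 2, with a median log2 difference of -0.24. With total-count scaling the counts were 4 lower and 3 higher. Of the 27, 9 had a positive and 18 a negative difference. Fos (0.26) and Jun (0.31) did not pass, nor did the feedback genes Dusp6 (-0.04), Spry4 (0.66) and Spry2 (1.62). Egr1, a zinc finger factor, stood at 1316, 1852, 1938, 2367, 2040 and 1583 CPM in batch 1 and at 619, 984, 668, 637 and 587 CPM in batch 2. The batches did not overlap (log2 difference -1.40 ± 0.22, adjusted p = 0.000925). Nr4a3, an orphan nuclear receptor, was lower by -2.20 ± 0.39 on the log2 scale, at 7.48 to 22.4 CPM against 0.952 to 5.45 CPM. Ier3, an immediate early survival factor (log2 difference -1.67 ± 0.40, adjusted p = 0.0154), also varied by set: set 1 stood at 1060, 873 and 1228 CPM, set 2 at 426, 359 and 311 CPM, set 4 at 390 and 263 CPM, and sets 5 and 6 at 138 to 165 CPM. The AP-1 members Fosl1 (log2 difference -1.23, adjusted p = 0.00923) and Junb (-0.74, adjusted p = 0.0442) completed the 5 lower genes, and Junb passed in only 3 of the 11 fits that left out 1 library. With counts summed by set 0 of 27 immediate early and ERK feedback genes passed (edgeR), with 6 lower and 1 higher at an unadjusted p under 0.05.

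Of 19 granulosa genes tested, 3 were higher in batch 2 and 0 lower (median log2 difference 0.22), against 11.0% called over all genes. Ccnd2, the D-type cyclin that drives granulosa cell division, had the clearest separation: 60.1, 73.8, 83.8, 61.6, 75.8 and 72.6 CPM in batch 1 against 463, 210, 166, 239 and 213 CPM in batch 2. All batch 2 libraries were above all batch 1 libraries, and the batch 1 values lay close together. The log2 difference was 1.86 ± 0.24 (adjusted p = 0.000216), and Ccnd2 also passed with counts summed by set (adjusted p = 0.042). Gata4, a transcription factor of granulosa cells, averaged 10.4 ± 4.72 CPM and 35.4 ± 20.5 CPM (log2 difference 1.76, adjusted p = 0.0123), with set 4 at 16 and 18 CPM and Control 9 at 66.7. Cyp19a1, which encodes aromatase, averaged 110 ± 38.9 and 205 ± 50.7 CPM (log2 difference 0.90, adjusted p = 0.0301), overlapped between batches and passed in 5 of the 11 fits that left out 1 library. Inhba, the activin subunit, stood at 24413 ± 3000 and 22284 ± 1489 CPM (log2 difference -0.13 ± 0.20), and Fshr, the receptor of follicle-stimulating hormone, at 7.11 ± 3.24 and 9.07 ± 1.6 CPM; neither passed. Lhcgr, the receptor of hCG, ranged from 180 to 389 CPM in batch 1 and from 265 to 1158 CPM in batch 2, and missed the threshold (log2 difference 1.01 ± 0.33, adjusted p = 0.0571). Of 23 proliferation genes 0 passed in either direction (edgeR), and DESeq2 called 1. At an unadjusted p under 0.05 (edgeR), 3 were higher and 0 lower, against 2349 of all 9128 genes in either direction.

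Of 10 steroidogenic genes tested, 2 were higher in batch 2 and 0 lower. Cyp11a1, the side-chain cleavage enzyme that makes pregnenolone from cholesterol, stood at 4487, 4077, 4084, 4923, 4446 and 2543 CPM in batch 1 and at 18552, 10383, 18332, 10807 and 6658 CPM in batch 2. There was no overlap (log2 difference 1.66 ± 0.28, adjusted p = 0.00133), and Control 7 and Control 9, from different sets, were the highest. Akr1c18, which breaks progesterone down, was near the floor in batch 1 (0 to 2.91 CPM, with set 2 at or below 0.277) and stood at 15.7, 26.3, 10.8, 12.2 and 8.13 CPM in batch 2 (log2 difference 3.55 ± 0.51, adjusted p = 0.000468). This gene passed the low-count filter only through its batch 2 libraries, so its difference is not separate from how it was selected. Star, which carries cholesterol into mitochondria, was 9967 ± 3525 and 12143 ± 3695 CPM, and Hsd3b1, which makes progesterone, 9848 ± 2438 and 8785 ± 1242 CPM. Neither of these passed (adjusted p of 0.563 and 0.695). With counts summed by set 0 of the 10 steroidogenesis genes passed (edgeR), with 3 higher and 0 lower at an unadjusted p under 0.05.

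**Figure D2:**
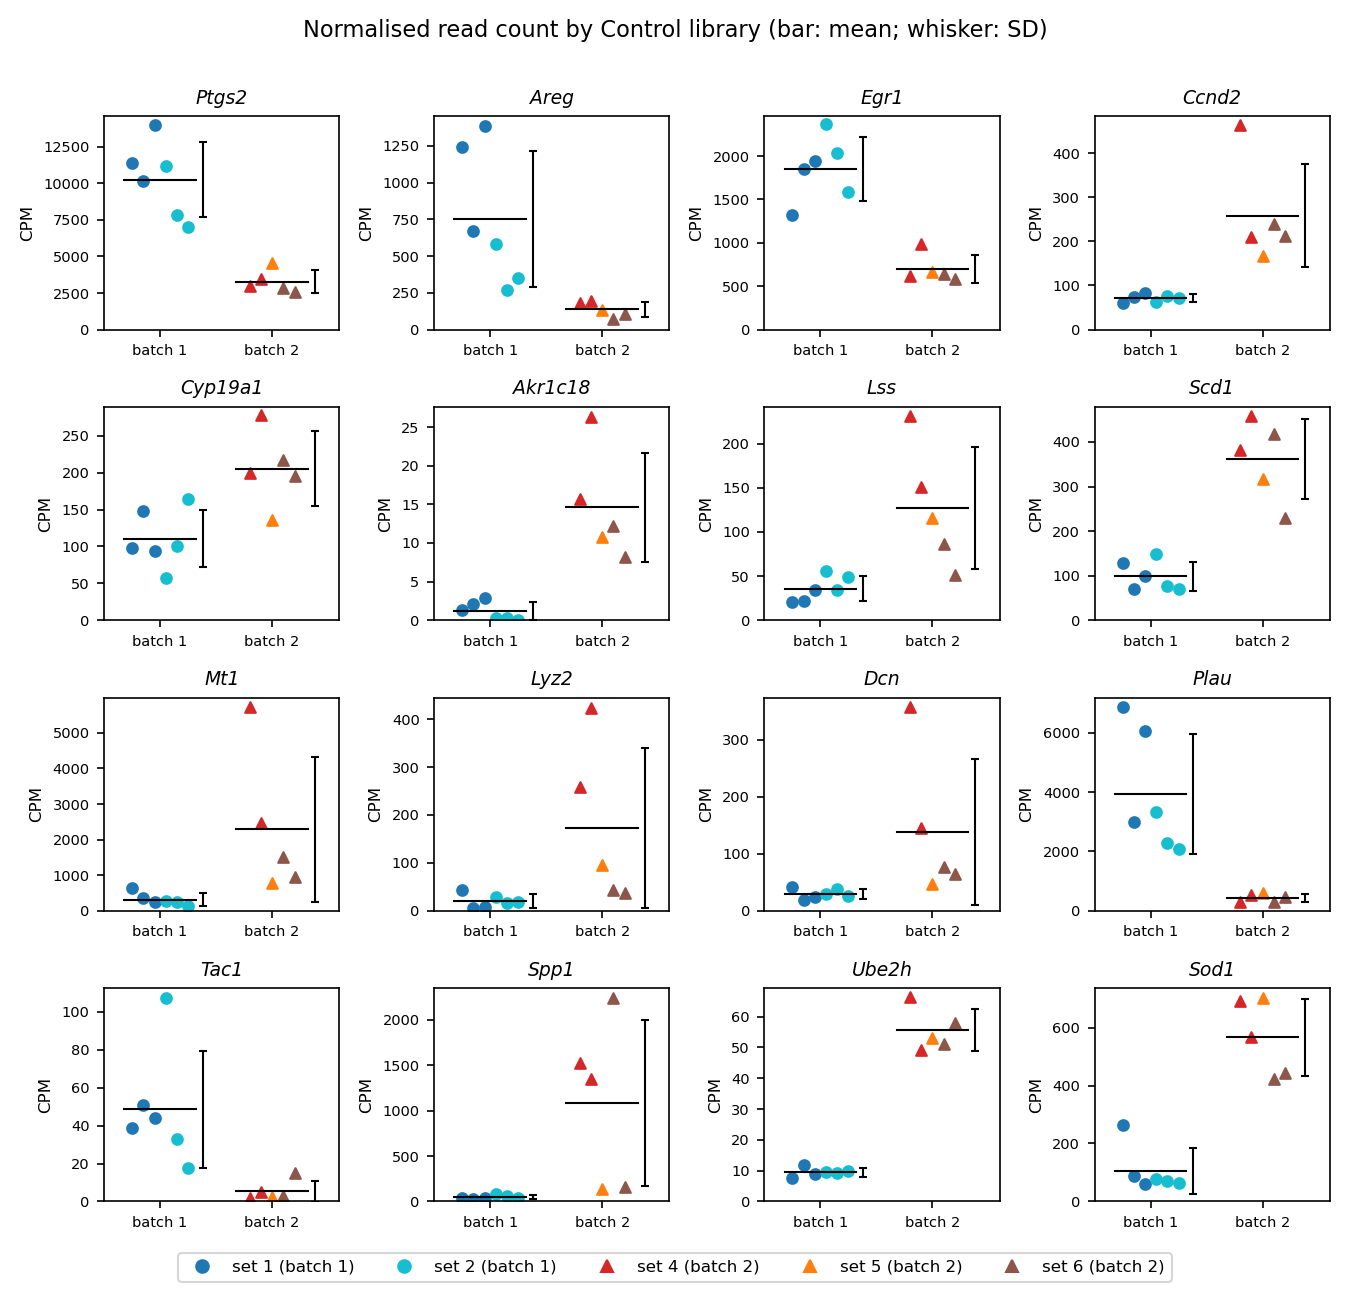
CPM of 16 genes in each Control library on linear axes starting at 0, with points coloured by set, a bar at the batch mean and a whisker of 1 SD. Ptgs2, Areg, Egr1, Plau and Tac1 lie lower in batch 2 and the other 11 genes lie higher on average, with overlap between the batches only in Cyp19a1, Lss and Lyz2.

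Many genes of sterol synthesis, the pathway from acetyl-CoA to cholesterol, were higher in batch 2. Of 22 tested, 11 were higher, 1 was lower and the others did not pass, and the median log2 difference was 0.86. Lss, which makes the first sterol of the pathway, stood at 20.1, 22.3, 34.6, 55.2, 33.7 and 48.9 CPM in batch 1 and at 231, 151, 116, 86.3 and 51.1 CPM in batch 2 (log2 difference 1.83 ± 0.35, adjusted p = 0.00417). Only Control 11 came within the range of batch 1. Fdft1, which makes squalene, stood at 92.6 to 132 CPM in batch 1 and at 657, 311, 297, 161 and 152 CPM in batch 2, without overlap. The same order of batch 2 libraries, with set 4 highest and set 6 lowest, held in Mvd (82, 42.5, 36.3, 27.2 and 17.7 CPM), and the median of the list between set 6 and set 4 was -0.92 on the log2 scale. Hsd17b7, Nsdhl, Ebp and Pmvk, which act earlier and later in the pathway, were higher by 1.60, 1.54, 1.77 and 1.72 on the log2 scale. Fdps, Hmgcs1, Sc5d and Dhcr7 were higher by 1.27, 0.96, 0.86 and 0.78. The sterol synthesis count was 3 higher without set 1 and 4 higher without set 2, and 0 passed with counts summed by set (edgeR), where 13 were higher and 1 lower at an unadjusted p under 0.05.

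Sterol synthesis genes are controlled by SREBP2, a membrane-bound factor that is released when cholesterol is scarce and binds sterol response elements. The promoter of Hmgcs1 is shown because it was the only window of the called sterol genes examined that held TCACNCCAC, the form searched for this element. The window is chr13:119690101-119690350 on the plus strand of GRCm38.p6, and capitals mark the match.
Hmgcs1: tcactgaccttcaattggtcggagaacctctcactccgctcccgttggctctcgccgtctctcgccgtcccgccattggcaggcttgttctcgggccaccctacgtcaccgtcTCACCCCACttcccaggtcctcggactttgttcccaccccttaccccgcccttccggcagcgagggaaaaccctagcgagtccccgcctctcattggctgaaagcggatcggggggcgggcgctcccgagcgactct
Both strands were searched, and 1.05% of all windows held a match. The letters CCAAT occurred 3 times in the same window, and 33.8% of all windows held them at least once.

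Of 23 genes of fatty acid metabolism and lipid droplets, 7 were higher in batch 2, among them the desaturases, and 0 lower. The list's median log2 difference was 0.16, and 9 of the 23 had a negative difference. Scd1, the stearoyl-CoA desaturase, stood at 128, 70.1, 98.6, 148, 76.3 and 71 CPM in batch 1 and at 383, 459, 318, 417 and 230 CPM in batch 2. All libraries of batch 2 were above all of batch 1 (log2 difference 1.87 ± 0.25, adjusted p = 0.000236), and Scd1 passed with counts summed by set (adjusted p = 0.0265). Fads1 and Fads2, which desaturate polyunsaturated fatty acids, were highest in set 4: Fads1 stood at 870 and 1012 CPM there, at 227 to 424 CPM in sets 5 and 6 and at 99.8 to 157 CPM in batch 1. Their log2 differences were 2.13 ± 0.35 and 1.87 ± 0.35. Acss2 (1.48) and Acly (0.75), which supply cytosolic acetyl-CoA, Scd2 (1.00) and Acadm (0.94), an enzyme of fatty acid oxidation, were also higher on the log2 scale. The fatty acid and lipid droplet count was 3 higher without set 1 and 4 higher without set 2 or set 6. Over sets, 1 of the 23, Scd1, passed.

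**Figure D3:**
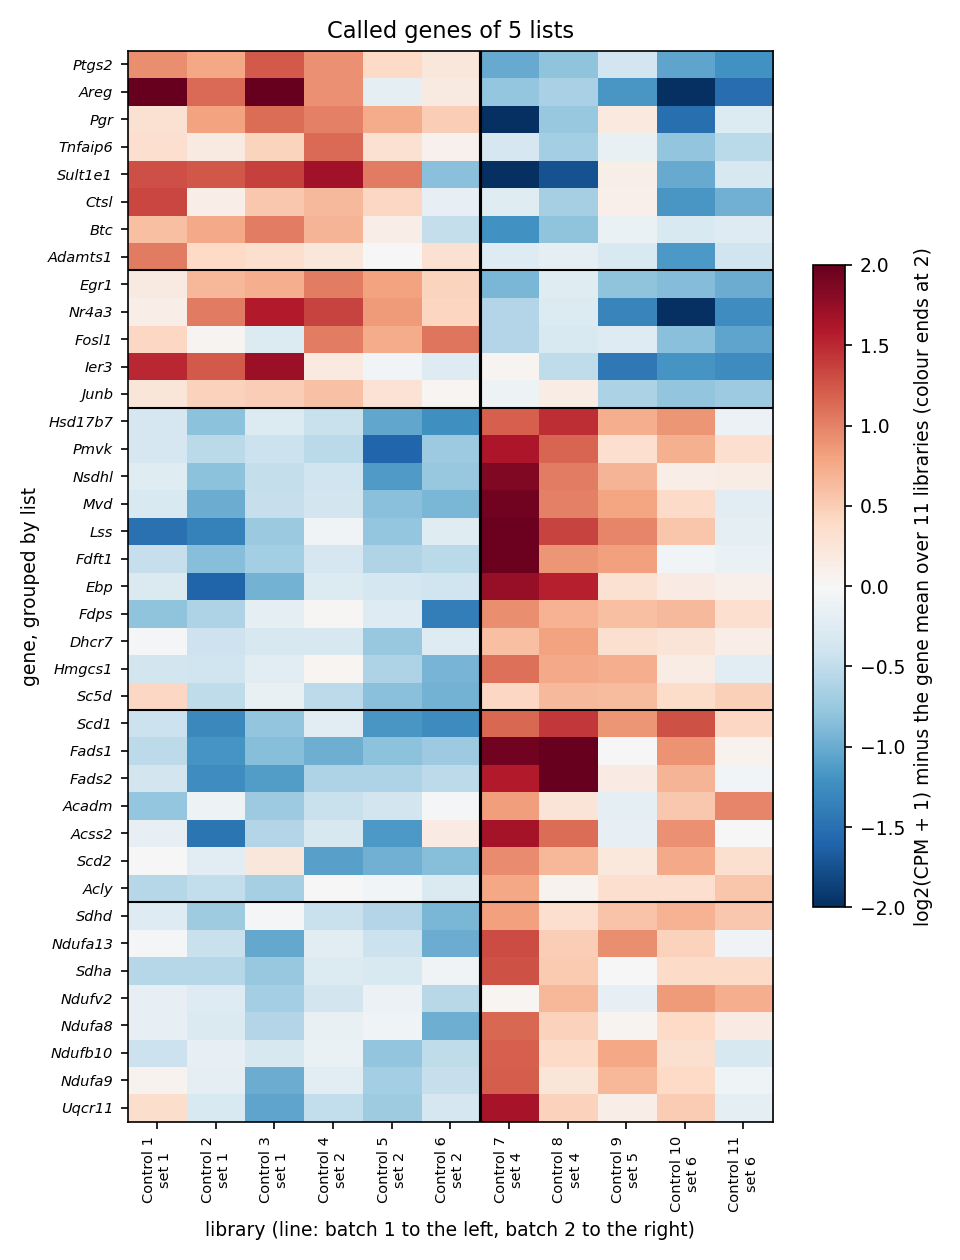
log2(CPM + 1) minus the gene's mean over the 11 Control libraries, for called genes of the ovulatory, immediate early, sterol (higher genes only), fatty acid and respiratory lists (blocks from top to bottom), with libraries in columns and the colour scale ending at 2. The first 2 blocks are mostly above their mean in batch 1 and below it in batch 2, and the other blocks are mostly the reverse, most deeply in Control 7.

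Of 77 nuclear-encoded respiratory chain subunits, 8 were higher in batch 2 and 0 lower, with a median of 0.32. The share called was close to the 11.0% over all genes, although all 8 were higher. Sdhd, a subunit of succinate dehydrogenase, was the steadiest, at 24.7 to 46.3 CPM in batch 1 and 60.1 to 84.2 CPM in batch 2 (log2 difference 1.08 ± 0.19, adjusted p = 0.00167). Sdha of the same complex was 92.4 ± 16.2 and 184 ± 67.1 CPM, without overlap. The other 6, all of complex I or III (Ndufa13, Ndufv2, Ndufa8, Ndufb10, Ndufa9 and Uqcr11), were higher by 0.87 to 1.22, and all of these but Ndufv2 were highest in Control 7 among the batch 2 libraries. Without Control 7 the nuclear-encoded respiratory chain had 4 higher and 2 lower and its median was 0.06; the count of higher genes was 3 without Control 3 and 5 without Control 5, Control 8 or Control 10. Summed by set, 0 of the 77 passed (edgeR), with 10 higher and 1 lower at an unadjusted p under 0.05. Over all 9128 genes that count was 1482, in either direction.

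The summed level of the mitochondrially encoded mRNAs was 22178 ± 5094 CPM in batch 1 and 12850 ± 6613 CPM in batch 2 (exact two-sided permutation test, p = 0.0195, with an adjusted p of 0.0633 among 13 measures of the libraries). The batch means of this sum differed by -9328 CPM, and by -6452 CPM without Control 7 (exact two-sided permutation test, p = 0.0524). Of the 7 mRNAs tested singly 0 passed (edgeR), with 2 lower at an unadjusted p under 0.05, and DESeq2 called 1 lower. Of 82 cytosolic ribosomal proteins 3 were lower and 0 higher, with Rpl18 and Rpl13 lower by -0.92 and -0.89 on the log2 scale. The share called was below the 11.0% over all genes. For the cytosolic ribosomal proteins the count lower was 14 without Control 7, 1 without Control 9 and 0 without Control 1, 2, 3, 8, 10 or 11. Over sets, 0 of the 7 mitochondrial and 0 of the 82 ribosomal genes passed (edgeR), with 2 and 10 lower and 0 higher at an unadjusted p under 0.05. Over all 9128 genes that count was 1482, in either direction. Ribosomal protein genes have many processed pseudogenes, so their counts are uncertain where reads could be shared.

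Glycolysis and the response to hypoxia gave few calls. Of 20 glycolysis genes 0 passed (edgeR), and DESeq2 called 0. At an unadjusted p under 0.05 (edgeR), 3 were higher and 0 lower, against 2349 of all 9128 genes in either direction. Ldha, which makes lactate, ranged from 4980 to 8178 CPM in batch 1 and from 1723 (Control 9) to 12466 CPM (Control 7) in batch 2, so the spread within batch 2 exceeded that of batch 1 on both sides. Of 17 hypoxia response genes 1 passed: Fam162a, a mitochondrial target of the hypoxia factor, was 24.7 to 59.5 CPM in batch 1 and 517, 109, 22.1, 161 and 85.5 CPM in batch 2 (log2 difference 2.02 ± 0.59, adjusted p = 0.047). The hypoxia response count was 0 without any of Control 1 to 7 or Control 10, and 5 higher without Control 9, and the list's median was 0.67. For both Ldha and Fam162a the highest and lowest batch 2 libraries were Control 7 and Control 9. Over sets, 0 glycolysis and 0 hypoxia response genes passed (edgeR), and 0 of either list had an unadjusted p under 0.05.

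The metallothionein genes Mt1 and Mt2, for small proteins that bind zinc and copper, were higher in batch 2 over libraries. Mt1 stood at 643, 352, 235, 273, 242 and 145 CPM in batch 1 and at 5712, 2479, 768, 1524 and 949 CPM in batch 2 (log2 difference 2.86 ± 0.52, adjusted p = 0.00385). Mt2 stood at 266, 80.3, 65.5, 106, 64.1 and 55.2 CPM and at 695, 420, 202, 280 and 142 CPM (log2 difference 1.71 ± 0.47, adjusted p = 0.0322). Both genes were highest in Control 7 and, within batch 1, in Control 1, and for Mt2 that library overlapped with batch 2. Mt2 passed in 3 of the 11 fits that left out 1 library, and Mt1 in all 11. Neither passed with counts summed by set (adjusted p of 0.143 for Mt1 and 0.18 for Mt2). The pair are closely related copies, and an antisense transcript covers part of Mt2 in GENCODE. Smart-Seq2 does not mark strand, so the split of reads among these transcripts is uncertain. Metallothionein promoters are switched on by the metal-sensing factor MTF1 through repeated metal response elements. The Mt2 window (chr8:94172368-94172617, plus strand, GRCm38.p6) is shown because it held more matches than the window taken for Mt1. Capitals mark TGCNCNC, the core of these elements, on either strand.
Mt2: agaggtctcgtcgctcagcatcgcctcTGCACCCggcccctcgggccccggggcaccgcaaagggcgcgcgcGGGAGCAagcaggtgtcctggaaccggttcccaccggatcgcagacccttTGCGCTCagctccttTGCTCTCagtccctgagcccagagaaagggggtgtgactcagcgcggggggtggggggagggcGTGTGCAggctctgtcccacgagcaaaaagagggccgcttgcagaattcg
This window held 5 matches, and the window taken for Mt1 (chr8:94178839-94179088) held 1. Sequence outside these windows was not searched, so these are not counts for the whole promoters. Whether the matches bear on the difference of either gene was not tested. Among all windows 44.4% held at least 1 and 1.28% held 4 or more. Bag3, a co-chaperone of the heat shock response, was the only other gene of the list that passed, and it was lower (log2 difference -0.76, adjusted p = 0.0266). Over sets, 0 of the 9 genes of the list passed (edgeR), with 2 higher and 3 lower at an unadjusted p under 0.05.

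Other stress and hormone genes passed singly. Fkbp5, a glucocorticoid and progesterone target, was 3.78 to 14.4 CPM in batch 1 and 18.8 to 37.2 CPM in batch 2 (log2 difference 1.75 ± 0.29, adjusted p = 0.00141). Per1, a clock gene, was lower by -1.37 ± 0.26. These were 2 of 12 glucocorticoid and clock genes tested, and with counts summed by set neither passed (adjusted p of 0.0738 for Fkbp5 and 0.0905 for Per1). Bcl2l1, which encodes the anti-apoptotic protein BCL-xL, was 6.11 to 14.7 CPM in batch 1 and 25.5 to 38.4 CPM in batch 2 (log2 difference 1.70 ± 0.24, adjusted p = 0.000444) and passed with counts summed by set (adjusted p = 0.0285). It was the only one of 12 p53 and BCL2 family genes that passed. Chac1 (-1.39), of the amino acid and unfolded protein response, and Slc48a1 (1.34), a haem transporter on the NRF2 list, were the only members of their lists that passed, and neither passed with counts summed by set.

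**Figure D4:**
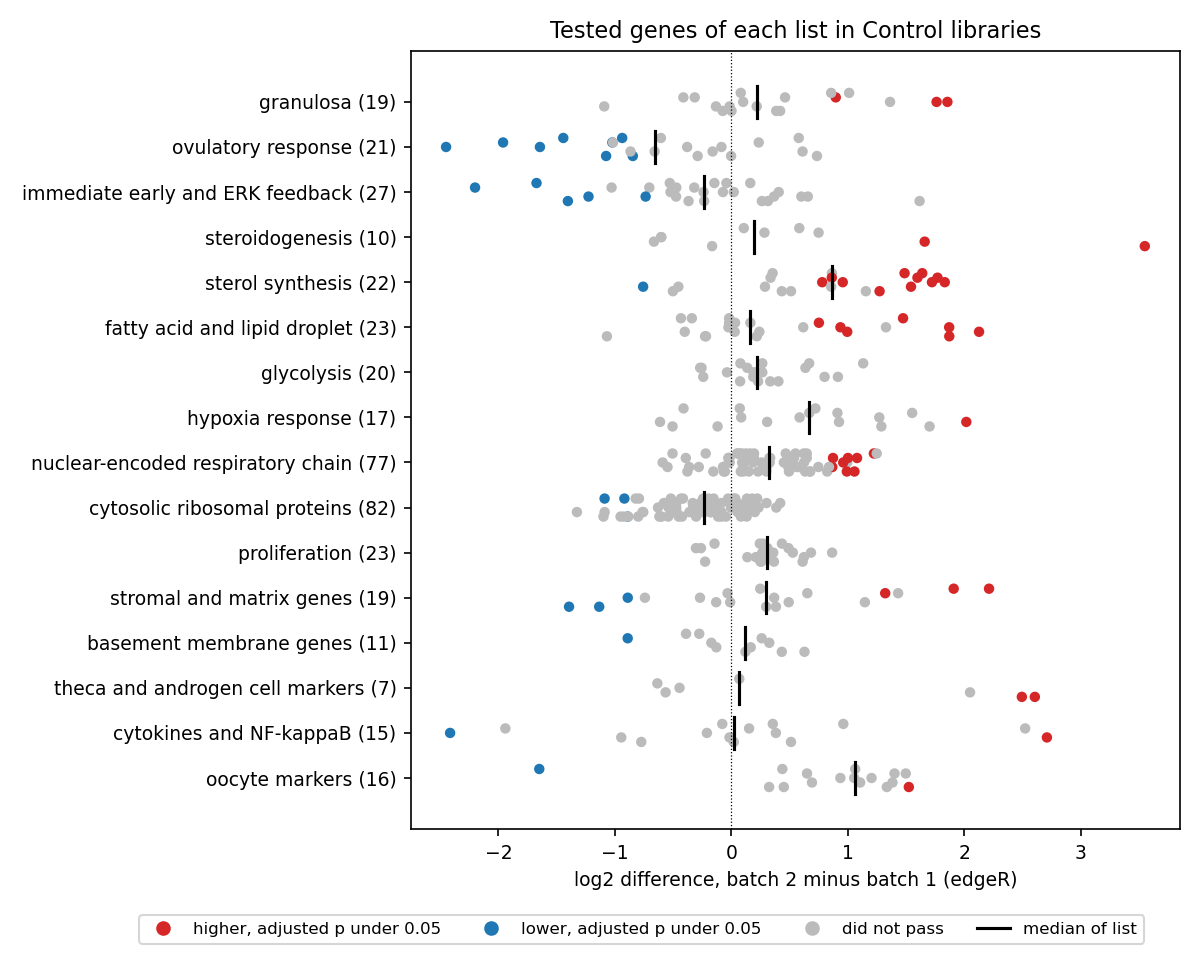
log2 difference between batches for each tested gene of 16 lists, with the number tested in parentheses, red for genes that were higher and blue for genes that were lower at an adjusted p under 0.05, grey for the rest and a black bar at the list's median. The sterol list has its median at 0.86 and the ovulatory list at -0.66, while the stromal list has called genes on both sides.

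Stromal and matrix genes split. Of 19 tested, 3 were higher in batch 2 and 3 lower, with a median of 0.30. Dcn, a proteoglycan of fibroblasts and theca, stood at 42, 18.9, 23.9, 29.1, 38.8 and 26.3 CPM in batch 1 and at 357, 146, 47.6, 76.4 and 65.3 CPM in batch 2. The lowest batch 2 library lay just above the highest of batch 1 (log2 difference 2.21 ± 0.46, adjusted p = 0.0092). Lum and Mgp, other matrix genes of stroma, were higher by 1.32 and 1.91. Col3a1, the fibrillar collagen, averaged 258 ± 134 and 697 ± 422 CPM and did not pass (adjusted p = 0.0688). Fn1, fibronectin, was lower at 89 ± 22.1 against 48 ± 10.6 CPM, as were Fbln1 (321 ± 106 against 146 ± 36.6 CPM) and Acta2, the smooth muscle actin (42 ± 15.5 against 16.2 ± 9.99 CPM). Of 11 basement membrane genes only Hspg2, perlecan, passed (log2 difference -0.89, adjusted p = 0.0111, and 0.161 with counts summed by set). In these whole follicles, fewer cells of a type and less RNA per cell cannot be told apart. The stromal and matrix genes had 0 calls without set 1 and 0 with counts summed by set (edgeR), where 3 were higher and 4 lower at an unadjusted p under 0.05. The count higher was 1 without Control 2, 3, 7 or 8 and 5 without Control 9.

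Markers of cells outside the granulosa layer were measured by list, and the parts they play in the differences above were not tested. Of 7 theca and androgen cell markers, Aldh1a1 (12.6 to 84.1 CPM in batch 1 against 545, 381, 83.8, 117 and 64 CPM) and Mgarp (37.9 to 128 CPM against 1116, 383, 136, 389 and 250 CPM) were higher. Cyp17a1, the androgen-producing enzyme that defines theca cells, was 14.4 to 105 CPM in batch 1 and 327, 533, 59.2, 69.1 and 72.4 CPM in batch 2, and did not pass (log2 difference 2.05 ± 0.66, adjusted p = 0.0713). On average set 4 was the highest for all 3 of these genes. Over the 7 markers the median log2 difference was 0.07, with 4 positive and 3 negative. The negative ones were Ptch1 (-0.56), Enpep (-0.44) and Ephx2 (-0.63), none of which passed, and Hhip was at 0.07. The summed level of the theca list was lower in batch 2 (29975 ± 1819 against 20108 ± 6541 CPM, exact two-sided permutation test, adjusted p = 0.0375 over 13 measures), but Ephx2, an epoxide hydrolase, made up 97.9% of that sum. Without Ephx2 the sum was 200 ± 83.7 CPM in batch 1 and 932 ± 721 CPM in batch 2 (exact two-sided permutation test, p = 0.00433, not adjusted). Over sets, 0 of the 7 theca markers passed (edgeR), with 2 higher and 0 lower at an unadjusted p under 0.05.

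Leukocyte markers were low. Of 16, 3 passed the low-count filter and 13 did not, and Ptprc, which all leukocytes carry, was at or below 1.25 CPM in every library. Lyz2, a lysozyme of macrophages, was 5.51 to 44.1 CPM in batch 1 and 259, 424, 95.5, 44 and 38.2 CPM in batch 2 (log2 difference 3.11 ± 0.72, adjusted p = 0.0188), high in set 4 and overlapping with batch 1 in set 6. It did not pass with counts summed by set (adjusted p = 0.219). The sum of the list ranged from 19.7 to 72.7 CPM and from 60.1 to 490 CPM (exact two-sided permutation test, adjusted p = 0.0375 over 13 measures), Lyz2 made up 75.8% of it, and the rest was 22.4 ± 7.74 and 35.6 ± 18.3 CPM (p = 0.11). The batch means of this sum of macrophage and leukocyte markers differed by 165.5 CPM, and by 94.9 CPM without Control 8. Il33, an alarmin cytokine, was higher (2.1 to 4.95 CPM against 9.57, 23.4, 16.7, 68.4 and 2.5 CPM, log2 difference 2.71 ± 0.63), and it passed with counts summed by set although the libraries of set 6 lay at opposite ends. Il6 was lower (10.5 to 96.7 CPM against 4.91 to 10.8 CPM, log2 difference -2.41 ± 0.53, adjusted p = 0.0118). These were 2 of 15 cytokine and NF-kappaB genes, and B2m, lower by -0.89, was the only one of 10 interferon and antigen presentation genes that passed. Neither Il6 (adjusted p = 0.0584) nor B2m (adjusted p = 0.169) passed with counts summed by set. Of the endothelial markers, Pecam1 was at or below 6.19 CPM, and Cdh5 was 5.55 to 72.7 CPM in batch 1 and 5 to 14.4 CPM in batch 2. Of 10 such markers 2 were tested, Cdh5 (log2 difference -1.72) and Kdr (0.04), and neither passed. Their list summed to 50.1 ± 29.4 CPM in batch 1 and 19.2 ± 6.59 CPM in batch 2 (exact two-sided permutation test, adjusted p = 0.0788 over 13 measures). Within batch 1 that sum was 49.2 to 99.8 CPM in set 1 and 21.4 to 34.8 CPM in set 2.

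Of 16 oocyte markers tested, 1 was higher and 1 lower in batch 2, a share close to the 11.0% called over all genes. The median log2 difference of the markers was 1.06, and 9 were higher at an unadjusted p under 0.05. With counts summed by set 0 passed (edgeR), and 0 were higher and 1 lower at an unadjusted p under 0.05. Between set 2 and set 1, within batch 1, the median of the oocyte markers was 1.05. Zp3, a zona pellucida protein, passed at 0.873 to 5.16 CPM against 2.92 to 11 CPM (adjusted p = 0.0307). Kit, the receptor that oocytes and theca carry, was lower at 8.58 ± 3.07 against 2.57 ± 1.68 CPM (adjusted p = 0.018). The sum of the oocyte markers was 98.4 ± 39.2 and 186 ± 79.2 CPM (exact two-sided permutation test, p = 0.0433, adjusted p = 0.0938 over 13 measures).

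The genes with the most even separation were not members of these lists. Ube2h, an E2 enzyme of the ubiquitin pathway (chromosome 6, 30211289 to 30304539, GRCm38.p6), had the lowest p-value. It stood at 7.48, 11.9, 9.02, 9.43, 9.24 and 9.99 CPM in batch 1 and at 66.3, 49.3, 53, 51.2 and 57.8 CPM in batch 2 (log2 difference 2.54 ± 0.18, adjusted p = 9.76e-07). Klf13, a zinc finger transcription factor (chromosome 7, 63886351 to 63938915), stood at 16.6 to 29.3 CPM and at 180, 121, 118, 124 and 168 CPM (log2 difference 2.52 ± 0.20, adjusted p = 1.5e-06). Rbm5, a splicing regulator, moved less but as evenly, from 53.2 to 64.9 CPM in batch 1 to 156 to 180 CPM in batch 2. The pseudogene Tmem250-ps was at 6.4 to 10.8 CPM and 42.7 to 58.2 CPM, and it may share reads with its parent gene. All 4 passed with counts summed by set (adjusted p of 0.0112 for Ube2h, Klf13 and Tmem250-ps and 0.0298 for Rbm5).

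Among the 15 genes highest in batch 2 by the naming rule, some varied widely among batch 2 libraries. Spp1, which encodes the secreted phosphoprotein osteopontin (chromosome 5, 104435111 to 104441053), had the largest difference, at 29.9 to 81.3 CPM in batch 1 and 1526, 1352, 134, 2237 and 160 CPM in batch 2 (log2 difference 4.47 ± 0.69, adjusted p = 0.00181). Control 10 and Control 11, of the same set, differed more from each other than Control 11 did from batch 1. Car12, a carbonic anhydrase, stood at 16.8 to 23.9 CPM and at 759, 439, 50.5, 213 and 54.2 CPM (log2 difference 3.86), and Lrp11, of the LDL receptor family, at 2.77 to 6.69 CPM and at 8.1, 8.18, 156, 33.7 and 40.2 CPM (log2 difference 3.45). So the set with the highest level was set 4 for Car12 and set 5 for Lrp11. Sod1, the cytosolic superoxide dismutase, was more even, at 59.4 to 265 CPM and 423 to 702 CPM (log2 difference 2.44 ± 0.37, adjusted p = 0.000725). Gsn, the actin-severing protein gelsolin, Lrrc8a, the volume-regulated anion channel subunit, Arl5a, Ccdc6 and Arglu1 were higher by 2.39 to 3.01, and these 5 and Sod1 passed with counts summed by set. Hdc, which makes histamine, was higher by 2.38. With counts summed by set, Spp1 (adjusted p = 0.153), Car12 (0.197), Lrp11 (0.258) and Hdc (0.1) did not pass.

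Among the 15 lowest, the protease Plau came first. This gene for urokinase, a plasminogen activator of the ovulating follicle (chromosome 14, 20836662 to 20843388), stood at 6855, 2987, 6044, 3333, 2276 and 2099 CPM in batch 1 and at 309, 532, 593, 284 and 468 CPM in batch 2. The log2 difference was -3.17 ± 0.36 (adjusted p = 8.18e-05, and 0.0206 with counts summed by set). Msc, a bHLH repressor, stood at 317 to 592 CPM and 42.9 to 90.9 CPM (log2 difference -2.75 ± 0.24, adjusted p = 5.4e-06), and Tac1, the precursor of substance P, at 17.4 to 107 CPM and 1.72 to 15.2 CPM (log2 difference -3.14 ± 0.59). Grem1, a BMP antagonist that cumulus and granulosa cells secrete, was 12.4 to 36.1 CPM in batch 1 and 3.62 to 6.88 CPM in batch 2 (log2 difference -2.25 ± 0.29). Col24a1, Zfp703, Tmem26, Tubb2a and Ifi202b were lower by -2.02 to -2.55, and these 5, Plau, Msc, Tac1 and Grem1 passed with counts summed by set. Flrt3, Dgkk, Peg10 and Tubb2b (-2.04, -2.15, -1.97 and -2.01) passed over libraries only. Tubb2a and Tubb2b are near-identical tubulin genes, and Ifi202b belongs to a gene cluster of close copies, so their counts may share reads.

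Sets of the same batch were compared to see how much Control libraries differ where the batch is the same. Between set 2 and set 1, 17 genes passed (0.186%), and between set 6 and set 4, 41 (0.449%). At an unadjusted p under 0.05 there were 781 and 1437, against 2349 between batches, where more libraries were compared. Of the 17 and 41, 1 and 7 were among the 1004. Lgals3, a galectin, was 3.18 to 7.74 CPM in set 1 and 51, 71.4 and 64.1 CPM in set 2, while Rpl26 went from 118, 230 and 92.5 CPM to 23.6 to 25.2 CPM. Glo1, a detoxifying enzyme, was 4.66 to 8.48 CPM in set 1 and 30.7 to 32.2 CPM in set 2. Pi4k2b, a lipid kinase, was 3.93 and 9.7 CPM in set 4 and 69.5 and 76.9 CPM in set 6, Marcksl1 rose likewise from 14 and 19.2 to 126 and 206 CPM, and AI506816 fell from 25.3 and 32.3 to 1.14 and 1.25 CPM. None of these 6 passed between batches over the 11 libraries. The counts hinge on single libraries: set 2 against set 1 gave 6 without Control 3 or Control 5, 11 without Control 2 or Control 6 and 26 without Control 8. Set 6 against set 4 gave 1040 without Control 8, when Control 7 alone stood for set 4, and 1 without Control 7, 2 without Control 11 and 17 without Control 5 or Control 10. Leaving out Control 1, 2, 3, 4 or 6, which only enter the estimate of spread, gave 62, 27, 26, 70 and 69.

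The same comparison of batches was made in the Tyrphostin libraries, 3 against 3, which share no sample with the Control libraries. There 393 of 9918 genes passed (3.96%), 206 higher in batch 2 (2.08%) and 187 lower (1.89%). The count was 219 without Tyrphostin 1, 209 without Tyrphostin 3, 196 without Tyrphostin 4 and 130 without Tyrphostin 5. Of the 989 genes called in Control and tested in both, 952 (96.3%) had the same sign in Tyrphostin, against 72.7% of all 9010 genes tested in both. Of the 989, 236 also passed there, all in the same direction. The difference of the batch effect between Tyrphostin and Control passed in 0 of 10407 genes (0%, edgeR), with 392 at an unadjusted p under 0.05 and 0 by DESeq2. Ube2h was higher by 2.21, Klf13 by 2.67, Mt1 by 2.76 and Ccnd2 by 1.89 in batch 2 of the Tyrphostin libraries, and each passed. Ptgs2 (-1.54, adjusted p = 0.0381), Btc (-1.42), Tnfaip6 (-1.61), Sult1e1 (-2.53) and Ctsl (-1.45) passed there too. Areg did not (-2.16, adjusted p = 0.11), nor did Pgr (-1.45, adjusted p = 0.0844), Egr1 (-1.06, adjusted p = 0.122) or Plau (-3.37, adjusted p = 0.0512). The sterol synthesis list was closer to 0, with a median log2 difference of 0.13 in Tyrphostin, and Lss, higher by 1.07 (adjusted p = 0.0465), passed. The ovulatory response list had a median of -1.05 there, and the immediate early and ERK feedback list one of 0.04. Cyp19a1 (-0.05) and Gata4 (-0.02) were near 0. Of the 15 lowest genes in Control, Tac1 and Tubb2b (-0.38 each) and Ifi202b (0.88, adjusted p = 0.329) lay nearest to 0 or above it, and none of the 3 passed. Dcn, Lum and Col3a1 were higher by 3.45, 2.85 and 2.88, and each passed.

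**Figure D5:**
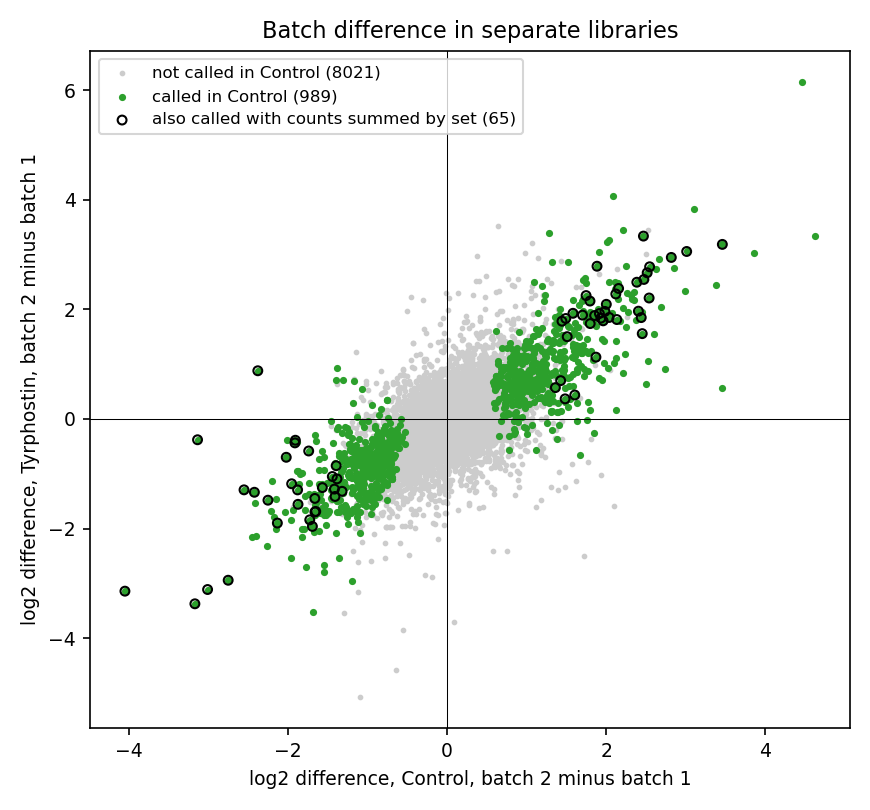
log2 difference of batch 2 minus batch 1 in Control libraries (x axis) against the same difference in Tyrphostin libraries (y axis) for the 9010 genes tested in both, with genes called in Control in green and those also called with counts summed by set in black rings. Of the 989 called genes 952 lie in the quadrants of equal sign, and Pearson's r across all genes, which are not independent replicates, was 0.678.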

How the data were processed

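Smart-Seq2 libraries from lysates of 3 follicles each were sequenced, and STAR, HTSeq and GRCm38 are named in the submitters' processing notes. The values deposited by the authors are raw read counts per gene in 1 table, and the counter's strand setting and annotation are not given in the sources used here. The members and lists were chosen with earlier results of these data known. Genes were filtered with filterByExpr by batch and scaled by TMM, and batches were compared with edgeR's quasi-likelihood test (edgeR 4.0.16, R 4.3.3), with Benjamini-Hochberg adjustment over all genes tested and a threshold of 0.05. With this filter a gene that is low in 1 batch can enter the test through its level in the other batch alone. SE is the standard error of the log2 difference, and values after ± are SD where they follow a mean CPM. Set contrasts, Tyrphostin libraries and the difference of the batch effect were fitted likewise. Named genes passed the threshold, had an average log2 CPM of at least 3, did not overlap between batches and kept direction with counts summed by set. The 15 highest and 15 lowest log2 differences were taken, beside the 5 lowest p-values, the members of 29 gene lists and the 3 lowest p-values of each set contrast. Clone or model names and pseudogenes were left out of the 15s. Library measures were compared by exact permutation over 462 arrangements. Alternatives included DESeq2 1.42.0, limma 3.58.1, other scalings and filters, counts summed by set and leaving out each library or set. The fit was tested on simulated data. Those libraries were drawn independently with no set effect, so that test cannot show false calls that arise from differences between sets. Some genes that passed are not reported here. Promoters came from RefSeq (GRCm38.p6).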

Additional observations from a re-analysis of the deposited data

Results flagged for a closer look

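Of 264 groups of libraries searched (132 measures in each batch), 27 had a library far from the others by Dixon's criterion at 95%. Chance gives about 1 in 20, or 13.2 groups, and 16 of the 27 were also far on the log2 scale. Control 7 accounted for 8 of them: its mitochondrially encoded mRNAs summed to 1346 CPM (14355 to 18185 in the rest of batch 2), its ribosomal protein mRNAs to 34887 CPM (12631 to 17434) and its surface epithelial markers to 7.85 CPM (2.92 to 4.17). Mgarp stood at 1116 CPM there, Ccnd2 at 463 CPM and Fam162a at 517 CPM, each above the rest of batch 2. Uqcr11 at 69.5 CPM and the glycolytic enzyme Gapdh at 2260 CPM were high in the same library.

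Control 1 was the highest of batch 1 for Sod1 (265 CPM), Adamts1 (1574 CPM), Mt2 (266 CPM), Il6 (96.7 CPM), Fn1 (132 CPM) and Mgp (16.8 CPM). Control 4 was the highest for Tac1 (107 CPM), Tnfaip6 (12539 CPM) and Star (16777 CPM). Control 6 had the fewest total counts (1820545, against 3807300 to 4834875 in the rest of batch 1), was high in Col24a1 (114 CPM) and low in Cyp11a1 (2543 CPM). In batch 2, Control 9 was high in Lrp11 (156 CPM) and Rpl26 (197 CPM) and low in Inhba (19663 CPM). Control 10 was low in Adamts1 (345 CPM) and Fshr (6.28 CPM), Control 8 was high in Egr1 (984 CPM) and Control 11 in Tac1 (15.2 CPM).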

How the results depend on the processing

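Of the 1004 genes called between batches (502 higher, 502 lower), the largest loss came with counts summed by set: 67 (37 and 30), or 63 (44 and 19) with total-count scaling, and 226 (120 and 106) without set 5. These last 2 were chosen after seeing the data. Set as a random block left 491 (226 and 265), an adjusted p under 0.01 left 360 (187 and 173), and a log2 difference of at least 1 left 610 (330 and 280). Without set 1, set 2 and set 6 the counts were 294 (135 and 159), 520 (230 and 290) and 570 (343 and 227). Total-count scaling gave 907 higher and 281 lower. Leaving out 1 library gave 660 to 1063 in all, 330 to 556 higher and 326 to 535 lower.

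For set 2 against set 1 the count of 17 became 66 with DESeq2, 103 with no low-count filter and 7 at an adjusted p under 0.01, with 6 to 26 when 1 library was left out. For set 6 against set 4 the count of 41 became 297, 511 and 7, with 1 to 1040. For the Tyrphostin libraries the count of 393 became 697, 872 and 89, with 130 to 452. For the difference of the batch effect the count of 0 became 79 with no low-count filter. The cause was not tested, beyond the smaller number of sets or libraries. Where a set was left with 1 library, that library was assumed to vary like the others. No named gene reversed its direction between the main fit and an alternative where it passed in either. Changes of sign in genes that passed in neither were not counted. The 3 library measures that passed were the theca sum, the leukocyte sum and the share of counts in the 20 most abundant genes. That share was 30.1% ± 0.53 in batch 1 and 26.6% ± 1.94 in batch 2 (SD, exact two-sided permutation test, adjusted p = 0.0375). All 3 kept their direction but missed the threshold (adjusted p of 0.0619 to 0.103) without any single library other than Control 7 or Control 9. They also missed it with means by set, where 10 arrangements cannot pass. No paired analysis was possible because the batches compared share no replicate numbers.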

Other observations

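Other genes that passed with counts summed by set, chosen after their values were seen, lay outside the lists and the naming rule. Prlr, the prolactin receptor, ran from 46.8 to 66.8 CPM in batch 1 and from 121 to 216 CPM in batch 2 (log2 difference 1.61, adjusted p = 0.0309 with counts summed by set). Slc39a1, a zinc importer, averaged 15.7 ± 6.03 CPM and 69.4 ± 4.37 CPM (log2 difference 2.13). Itpr1, the calcium release channel of the endoplasmic reticulum, averaged 27.9 ± 7.29 and 78.7 ± 30.2 CPM.

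Lower in batch 2 were Sfrp2, a secreted modulator of WNT signals (65 ± 28.3 CPM against 16.8 ± 3.75), and Cited2, a transcriptional coregulator (515 ± 211 against 141 ± 14.3 CPM). Kl, which encodes Klotho, averaged 8.11 ± 3.46 and 1.25 ± 0.515 CPM (log2 difference -2.75, adjusted p = 0.0383 with counts summed by set). The cytoskeletal genes Csrp2 (242 ± 38.7 against 74.8 ± 19.8 CPM) and Flnc (81.6 ± 17.4 against 25.6 ± 6.03 CPM) were lower as well.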
